A study of Mus musculus with 12 samples.

Results

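The NF-kappaB genes described here are 10 of the 33641 genes listed in the series. They were taken by symbol: the transcription factor subunits Nfkb1, Nfkb2, Rela and Relb, the inhibitors and feedback regulators Nfkbia, Nfkbiz and Tnfaip3, and the adhesion and chemokine targets Icam1, Vcam1 and Ccl2. The rule that names them uses only gene symbols and no measured value. RNA sequencing was carried out on mouse left ventricle (LV) and right ventricle (RV), with 3 samples in each of 4 groups. WT-PLN hearts carried human wild-type phospholamban, the calcium pump regulator, in place of the mouse protein on both alleles. R14del-PLN hearts were heterozygous, with 1 human allele lacking arginine 14 and 1 human wild-type allele, so all 4 groups shared the replacement by the human coding sequence. All mice are labelled C57BL/6J and 12 to 14 weeks old. The study describes male mice of a hybrid line founded from 129/Sv and C57Bl/6J chimeras and bred to Sox2-Cre. WT-PLN sample 1 of each ventricle had almost no RNA of Y-linked genes, as given below. The mutant samples are titled KO in the labels, although they carried a mutant allele and not a null one. Whole ventricle was sequenced, so a lower value in a bulk sample may come from fewer cells of a type or from less RNA per cell, which cannot be told apart.

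NF-kappaB dimers are held in the cytoplasm by IkappaB proteins until inflammatory, stress or receptor signals activate the IKK kinase complex, which marks the inhibitor for degradation. The freed dimers enter the nucleus and induce, among many targets, their own inhibitors, so that Nfkbia and Tnfaip3 are feedback genes as well as brakes. In heart tissue the pathway is known in endothelium, fibroblasts, leukocytes and cardiomyocytes, and its adhesion and chemokine targets recruit leukocytes.

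Expression was measured in TPM, which scales reads by transcript length and by the sample total, so levels can be compared between genes but hold no record of sequencing depth. Averaged over the 12 samples, Nfkbia was at 19.1 TPM, Nfkb1 at 10.8, Rela at 7.84, Vcam1 at 6.41, Nfkb2 at 5.12, Icam1 at 3.87, Ccl2 at 2.62, Relb at 2.18, Nfkbiz at 1.15 and Tnfaip3 at 0.602 TPM. Nfkb2 shares 299 exon bases with Psd and 531 with AC114539.1 on the other strand, Icam1 shares 511 with the antisense gene Gm47079, and Vcam1 shares 61 with Gm43109. How strand entered the counting is not given in the sources used here, so reads of these overlaps cannot be told apart. A search of the annotated transcripts found 0 near-identical copies of each of the 10 genes.

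Promoter sequences are shown for the genes of the set whose start region holds the motif that NF-kappaB dimers bind. RefSeq promoters of build GRCm38.p6 (250 bases before to 50 bases after a start site) were at hand for 5 of the 10 genes: Nfkbia, Tnfaip3, Nfkb2, Rela and Icam1. Nfkb1, Relb, Nfkbiz, Vcam1 and Ccl2 were not in the table used. The kappaB consensus, a motif of 10 letters, was searched on both strands and overlapping matches were kept. It was found in 4.51% of the 32851 promoters. The 5 genes had 8 promoters in the table, 3 of them for Nfkb2 and 2 for Tnfaip3, and 5 of the 8 held a match, in 3 genes (Nfkbia, Tnfaip3 and Nfkb2). Windows 2 and 3 of Nfkb2 overlap and share 1 matching site, which is counted in both. Matches are in capitals, and the start site is counted as 0. The Nfkbia window lies on the minus strand at chr12:55492598-55492897, the Tnfaip3 window on the minus strand at chr10:19015361-19015660 and the first Nfkb2 window on the plus strand at chr19:46304487-46304786.
Nfkbia: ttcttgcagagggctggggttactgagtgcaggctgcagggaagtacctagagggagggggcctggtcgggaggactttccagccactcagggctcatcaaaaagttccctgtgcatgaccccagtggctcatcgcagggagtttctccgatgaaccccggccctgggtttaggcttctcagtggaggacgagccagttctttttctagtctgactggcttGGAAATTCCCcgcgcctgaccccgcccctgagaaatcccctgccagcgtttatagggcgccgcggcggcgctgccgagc
Tnfaip3: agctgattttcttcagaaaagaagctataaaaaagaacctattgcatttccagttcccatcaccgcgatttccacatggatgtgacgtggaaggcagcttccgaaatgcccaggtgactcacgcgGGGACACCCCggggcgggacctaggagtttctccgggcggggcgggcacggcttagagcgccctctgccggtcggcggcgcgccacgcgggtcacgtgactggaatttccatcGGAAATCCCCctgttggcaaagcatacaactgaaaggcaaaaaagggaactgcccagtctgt
Nfkb2: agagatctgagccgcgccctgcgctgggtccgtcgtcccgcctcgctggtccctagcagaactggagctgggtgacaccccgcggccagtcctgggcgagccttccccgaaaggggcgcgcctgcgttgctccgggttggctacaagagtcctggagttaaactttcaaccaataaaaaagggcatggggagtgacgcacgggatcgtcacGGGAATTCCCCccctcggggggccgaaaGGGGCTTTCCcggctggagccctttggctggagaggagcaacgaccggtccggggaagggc

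The Nfkbia match, GGAAATTCCC, ran from -29 to -20. Tnfaip3 held GGGACACCCC from -125 to -116 and GGAAATCCCC from -12 to -3. The first Nfkb2 window held GGGAATTCCC from -39 to -30, the overlapping GGAATTCCCC from -38 to -29, and GGGGCTTTCC from -11 to -2. Its last 50 bases do not open a GENCODE transcript, so these positions rest on the RefSeq start site. Of the Nfkb2 windows not shown, window 2 held GGAATGTCCC from -236 to -227 and GGGACTTTCC from 10 to 19. Window 3 held the same GGGACTTTCC, there from -225 to -216. A second match or more was present in 0.554% of all promoters. No match was present in the Rela and Icam1 windows or in the other Tnfaip3 window, which says only that these letters are not there. A match is a description of the sequence and not a measurement of binding.

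Nfkbia, on the minus strand of chromosome 12 (chr12:55489410-55492647, GRCm38), encodes IkappaBalpha, the classical cytoplasmic inhibitor. It was at 22.3, 31.0 and 32.6 TPM in WT-PLN LV samples 1 to 3 and at 10.4, 14.0 and 17.6 TPM in R14del-PLN LV. In the RV it was at 20.9, 25.2 and 21.9 TPM in WT-PLN and at 10.4, 10.5 and 12.1 TPM in R14del-PLN. All 6 mutant samples lay below all 6 WT-PLN samples. The group means were 28.6 ± 5.58 and 14.0 ± 3.58 TPM in the LV and 22.7 ± 2.25 and 11.0 ± 0.968 TPM in the RV (SD, n = 3 each).

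In R14del-PLN hearts Nfkbia mRNA fell by 51.1% in the LV and by 51.4% in the RV. On the log2(TPM + 1) scale the change was -0.99 ± 0.18 (SE; 95% interval -1.38 to -0.60) in the LV, with a limma adjusted p of 0.0293. In the RV it was -0.98 ± 0.18 (95% interval -1.37 to -0.58), with an adjusted p of 0.0451. A gene was called at an adjusted p of at most 0.05 and a change of at least 1.5-fold, the thresholds of the study. The study applied them to its own test in CLC Genomics Workbench and reports more changed genes in each ventricle than were called here. A gene not called here may therefore have passed in the study. Nfkbia was the 1 gene of the 10 called in the LV, where 65 of 12526 tested genes (0.519%) were called, and also the 1 gene called in the RV, where 34 (0.271%) were. The genotype effect differed between RV and LV by 0.01 ± 0.26 in log2 (95% interval -0.54 to 0.57), so a difference between the ventricles was not detected within these limits.

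The call on Nfkbia depended on single libraries while its direction did not. Leaving out 1 library at a time, the log2 change ranged from -1.16 to -0.81 in the LV and from -1.04 to -0.90 in the RV. In the LV the adjusted p rose to 0.145 without WT-PLN LV sample 2, 0.151 without WT-PLN LV sample 3, 0.134 without R14del-PLN LV sample 1 and 0.110 without R14del-PLN LV sample 2. In the RV it rose to 0.0746, 0.252 and 0.134 without WT-PLN RV samples 1, 2 and 3, and to 0.143, 0.123 and 0.0990 without R14del-PLN RV samples 1, 2 and 3. The RV call was also lost without an LV library, at 0.0633 without WT-PLN LV sample 2, 0.0538 without WT-PLN LV sample 3 and 0.0756 without R14del-PLN LV sample 2. By construction all groups shared 1 estimate of the spread, so LV libraries enter the RV test. The SE of the RV change was 0.188, 0.181 and 0.191 in these fits, against 0.182 with all samples. What moved the adjusted p was not tested. R14del-PLN RV sample 3 is the 1 library marked with another sequencing run. Without a filter on low values the adjusted p of Nfkbia was 0.109 in the LV and 0.150 in the RV, and with only the LV groups in the fit it was 0.0732 in the LV.

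**Figure D1:**
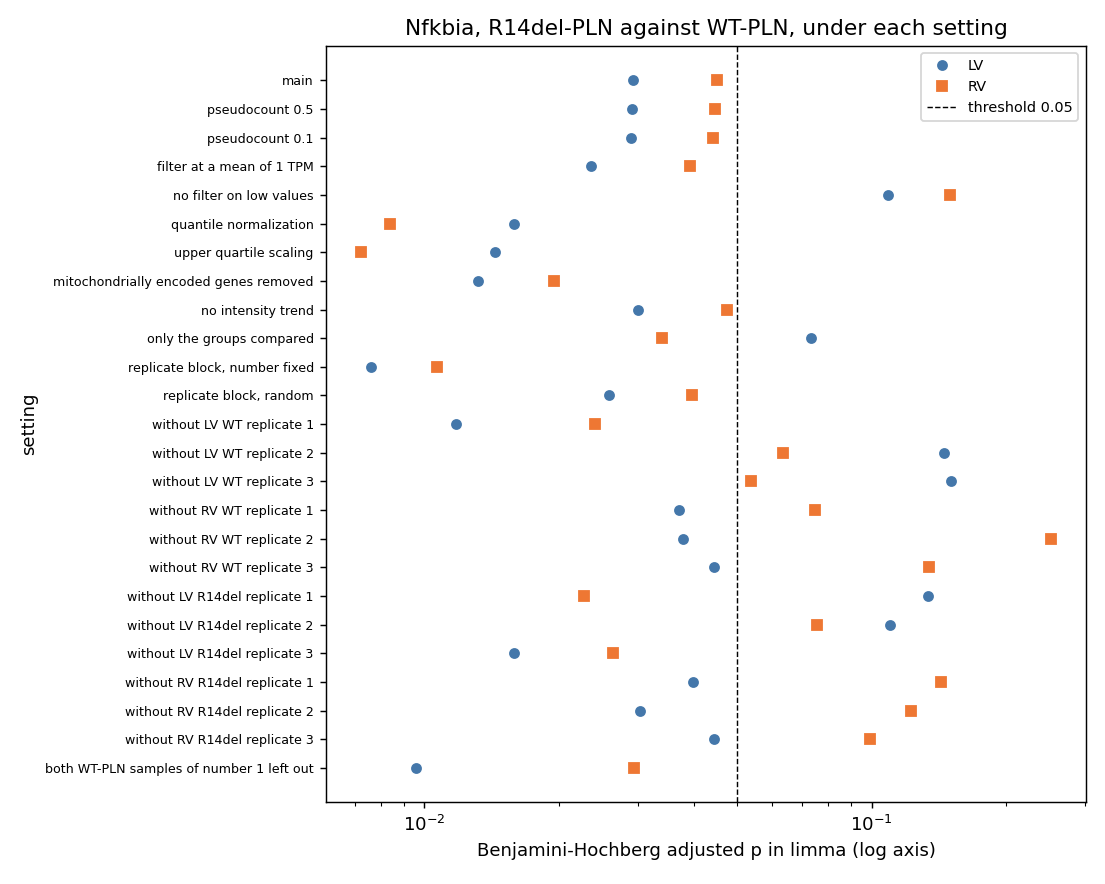
Benjamini-Hochberg adjusted p of Nfkbia in limma for R14del-PLN against WT-PLN (horizontal log axis) under the main settings and each alternative (rows), with circles for LV and squares for RV. Points right of the dashed line at 0.05 are settings in which the call was lost, up to 0.151 in the LV and 0.252 in the RV.

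Nfkbiz (chr16:55811375-55838899, minus strand) encodes IkappaBzeta, an atypical, nuclear member of the IkappaB family that modulates selected target genes. It was at 0.901, 2.04 and 2.88 TPM in WT-PLN LV and at 0.595, 0.536 and 0.662 TPM in R14del-PLN LV. RV values were 0.628, 1.32 and 2.36 TPM in WT-PLN and 0.641, 0.606 and 0.664 TPM in R14del-PLN. The 6 mutant samples were close together, while the WT-PLN samples spread widely, and the LV ranges did not overlap whereas WT-PLN RV sample 1 fell within the mutant RV range. The log2 change was -0.82 ± 0.26 in the LV (limma adjusted p = 0.262) and -0.51 ± 0.26 in the RV (adjusted p = 0.855), neither of which passed the test.

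Tnfaip3 (chr10:19000910-19015657, minus strand) encodes a ubiquitin-editing enzyme that shuts off signalling upstream of IKK. It was at 0.446, 0.793 and 0.873 TPM in WT-PLN LV and 0.447, 0.588 and 0.632 TPM in R14del-PLN LV, and at 0.321, 0.661 and 0.970 TPM in WT-PLN RV and 0.452, 0.516 and 0.527 TPM in R14del-PLN RV. The mutant values lay inside the WT-PLN range in both ventricles. Its log2 changes were -0.12 ± 0.15 in the LV and -0.12 ± 0.15 in the RV, with adjusted p-values of 0.864 and 1.

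**Figure D2:**
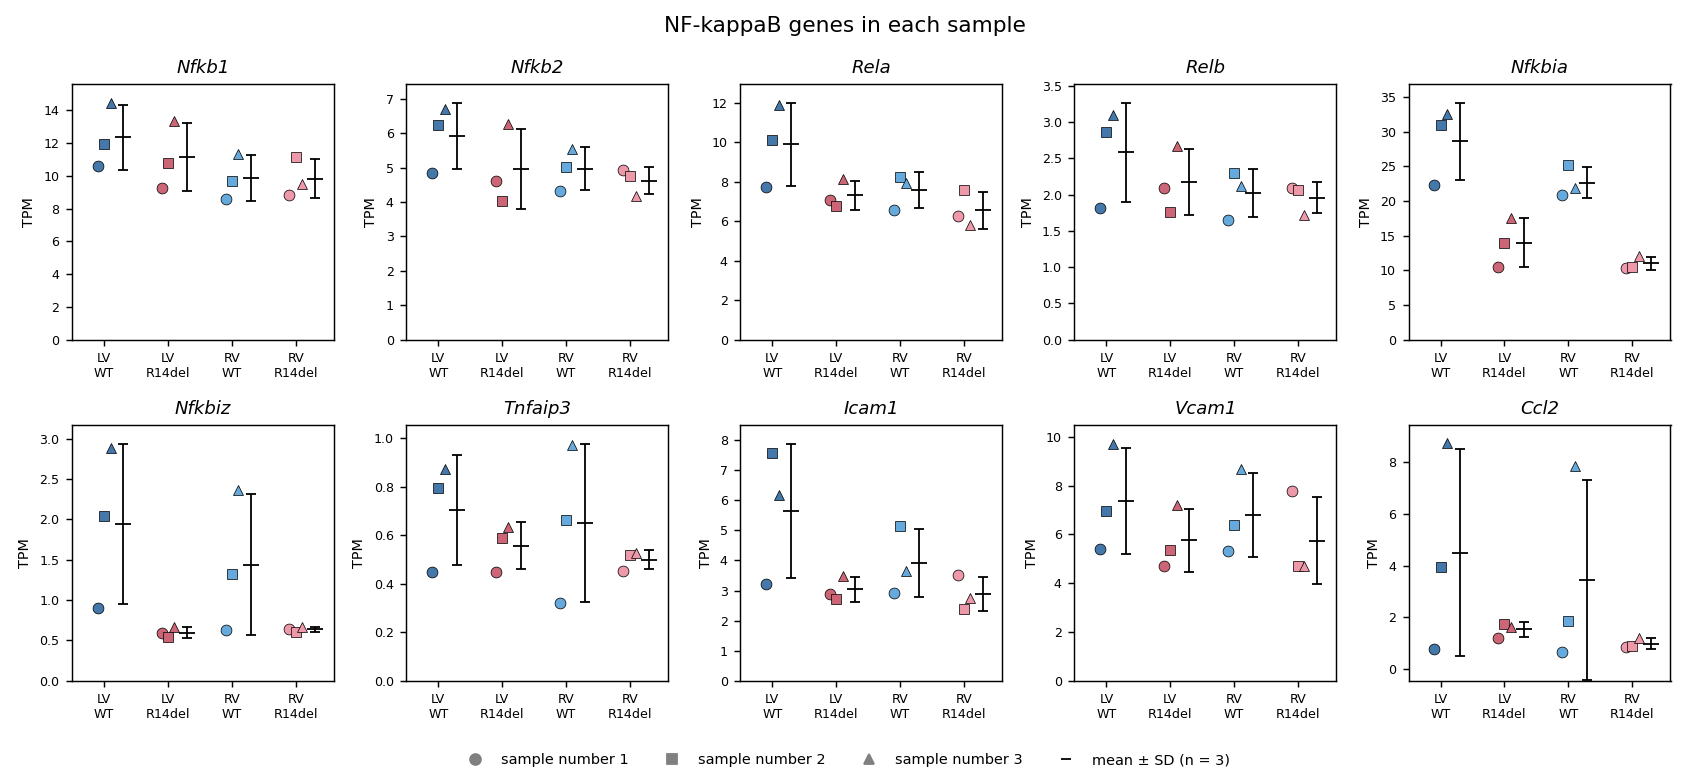
TPM of each of the 10 genes (vertical axes, linear) in the 4 groups of ventricle and genotype (horizontal axes), with symbols for sample numbers 1 to 3 and black bars for the mean ± SD of 3 samples. Nfkbia is the gene whose mutant samples all lie below the WT-PLN samples in both ventricles, and in WT-PLN the circles of sample 1 are the lowest of their group for all 10 genes.

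Among the factors, Rela (chr19:5637483-5648130, plus strand), the main activating subunit of the canonical pathway, was at 7.71, 10.1 and 11.9 TPM in WT-PLN LV and 7.05, 6.76 and 8.15 TPM in R14del-PLN LV. In the RV, values were 6.56, 8.23 and 7.95 TPM in WT-PLN and 6.29, 7.58 and 5.79 TPM in R14del-PLN. The ranges overlapped in both ventricles. The log2 change was -0.38 ± 0.16 in the LV (unadjusted p = 0.0329, adjusted p = 0.457) and -0.19 ± 0.16 in the RV (adjusted p = 1).

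Nfkb1 (chr3:135584655-135691547, minus strand), which encodes the precursor of the DNA-binding partner of RelA, was at 10.6, 11.9 and 14.5 TPM in WT-PLN LV and 9.27, 10.8 and 13.4 TPM in R14del-PLN LV. For the RV, values were 8.58, 9.71 and 11.4 TPM in WT-PLN and 8.85, 11.1 and 9.47 TPM in R14del-PLN. Genotype values were interleaved in both ventricles. The log2 change in the RV was -0.0059 ± 0.16 (95% interval -0.35 to 0.34), and it turned to 0.000475, 0.013 and 0.036 with quantile normalization, upper quartile scaling and removal of the mitochondrially encoded genes.

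Nfkb2 (chr19:46304320-46312385, plus strand) and Relb (chr7:19606217-19629438, minus strand) encode the dimer of the non-canonical pathway. Nfkb2 was at 4.84, 6.23 and 6.70 TPM in WT-PLN LV, 4.60, 4.03 and 6.27 TPM in R14del-PLN LV, 4.31, 5.03 and 5.56 TPM in WT-PLN RV and 4.93, 4.76 and 4.17 TPM in R14del-PLN RV. Relb was at 1.81, 2.86 and 3.09 TPM in WT-PLN LV, 2.09, 1.76 and 2.66 TPM in R14del-PLN LV, 1.65, 2.30 and 2.11 TPM in WT-PLN RV and 2.09, 2.07 and 1.71 TPM in R14del-PLN RV. The genotype ranges of both genes overlapped in both ventricles. Their log2 changes in the LV were -0.22 ± 0.16 for Nfkb2 and -0.17 ± 0.16 for Relb, and in the RV -0.08 ± 0.16 and -0.03 ± 0.16, with adjusted p-values between 0.732 and 1.

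The level of Nfkbia was also set against those of the subunits its protein binds. These TPM ratios were chosen after the values were seen and are given without a test; a factor applied to a whole sample cancels in them. Nfkbia to Rela was 2.90 ± 0.162 in WT-PLN LV, 3.00 ± 0.224 in WT-PLN RV, 1.90 ± 0.369 in R14del-PLN LV and 1.71 ± 0.356 in R14del-PLN RV (SD, n = 3 each). Nfkbia to Nfkb1 was 2.32 ± 0.256, 2.32 ± 0.351, 1.25 ± 0.105 and 1.13 ± 0.171 in the same order. The 6 mutant samples lay below the 6 WT-PLN samples in both ratios, with 1.39 to 2.16 against 2.74 to 3.19 for Nfkbia to Rela. For comparison, Nfkb2 to Relb was 2.34 ± 0.289 in WT-PLN LV and 2.28 ± 0.0771 in R14del-PLN LV. Nfkb1 to Rela had higher means in the mutants, with overlapping samples. It was 1.256 ± 0.104 in WT-PLN LV and 1.517 ± 0.177 in R14del-PLN LV, and 1.305 ± 0.125 and 1.503 ± 0.118 in the RV.

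**Figure D3:**
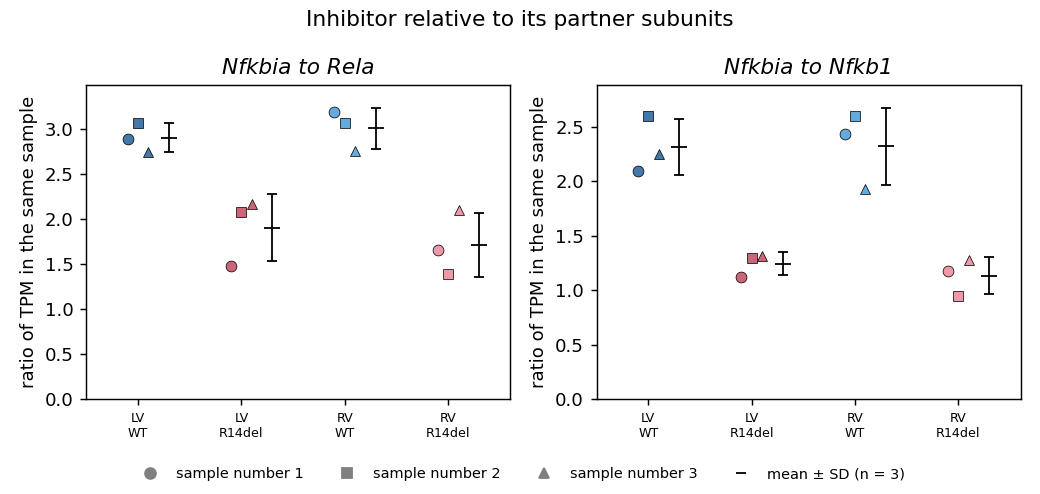
Ratio of Nfkbia TPM to Rela TPM (left) and to Nfkb1 TPM (right) in each sample (vertical axes, linear from 0) for the 4 groups, with symbols for sample number and black bars for mean ± SD of 3 samples. The ratios to Rela lie between 2.74 and 3.19 in WT-PLN and between 1.39 and 2.16 in R14del-PLN.

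Of the target genes, Icam1 (chr9:21015985-21028817, plus strand), an endothelial and leukocyte adhesion molecule, was at 3.21, 7.58 and 6.17 TPM in WT-PLN LV and 2.89, 2.73 and 3.50 TPM in R14del-PLN LV. RV samples gave 2.93, 5.15 and 3.66 TPM in WT-PLN and 3.52, 2.39 and 2.75 TPM in R14del-PLN. WT-PLN LV samples 2 and 3 were high, and sample 1 lay within the mutant range. The log2 change was -0.66 ± 0.24 in the LV (unadjusted p = 0.0150, adjusted p = 0.345) and -0.32 ± 0.24 in the RV (adjusted p = 1).

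Vcam1 (chr3:116109949-116129688, minus strand), the receptor for leukocyte integrins on activated endothelium, was at 5.40, 6.97 and 9.71 TPM in WT-PLN LV and 4.72, 5.37 and 7.20 TPM in R14del-PLN LV. In the RV it was at 5.32, 6.39 and 8.67 TPM in WT-PLN and 7.79, 4.70 and 4.72 TPM in R14del-PLN. The ranges overlapped, with R14del-PLN RV sample 1 above WT-PLN samples 1 and 2. The log2 changes were -0.29 ± 0.23 in the LV and -0.22 ± 0.23 in the RV, with adjusted p-values of 0.762 and 1.

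Ccl2 (chr11:82035571-82037453, plus strand), the chemokine that attracts monocytes, was at 0.799, 3.94 and 8.72 TPM in WT-PLN LV and 1.21, 1.75 and 1.64 TPM in R14del-PLN LV. Values in the RV were 0.661, 1.84 and 7.85 TPM in WT-PLN and 0.871, 0.880 and 1.22 TPM in R14del-PLN. Its values spanned 13.2-fold over the 12 samples, the widest span of the 10 genes, and both ends were WT-PLN samples. The log2 change was -0.81 ± 0.57 in the LV (95% interval -2.03 to 0.41, adjusted p = 0.726) and -0.81 ± 0.57 in the RV (adjusted p = 1), an interval that holds both no change and a change of this size.

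Read as a group, the 10 genes had log2 changes below 0 in both ventricles, where 71.7% of all tested genes in the LV and 50.9% in the RV did. The 10 genes varied together over the samples, so they are not separate observations. With group means removed, Pearson's r between 2 of them ran from 0.316 (Nfkb1 and Icam1) to 0.980 (Nfkbiz and Ccl2). In the RV Nfkb1 turned above 0 under quantile normalization, upper quartile scaling and removal of the mitochondrially encoded genes, and Relb did so under the last of these. The median log2 change of the 10 was -0.33 in the LV and -0.20 in the RV, beside -0.09 and -0.0034 over all tested genes. This median moved with single libraries: in the LV it was -0.50 without WT-PLN LV sample 1 and -0.19 without WT-PLN LV sample 3, and in the RV -0.32 without WT-PLN RV sample 1, -0.09 without WT-PLN RV sample 3 and -0.13 without R14del-PLN RV sample 3. At an unadjusted p of at most 0.05, 4 of the 10 were lower in the LV (Icam1, Nfkbia, Nfkbiz and Rela; 7.85% of all tested genes) and 1 in the RV (Nfkbia; 3.40%). Ranges of WT-PLN and R14del-PLN samples were apart for 2 genes in the LV (Nfkbia and Nfkbiz; 8.47% of tested genes were lower without overlap) and 1 in the RV (Nfkbia; 5.79%). The LV and RV comparisons rest on different samples, although samples of the same number may come from the same heart.

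**Figure D4:**
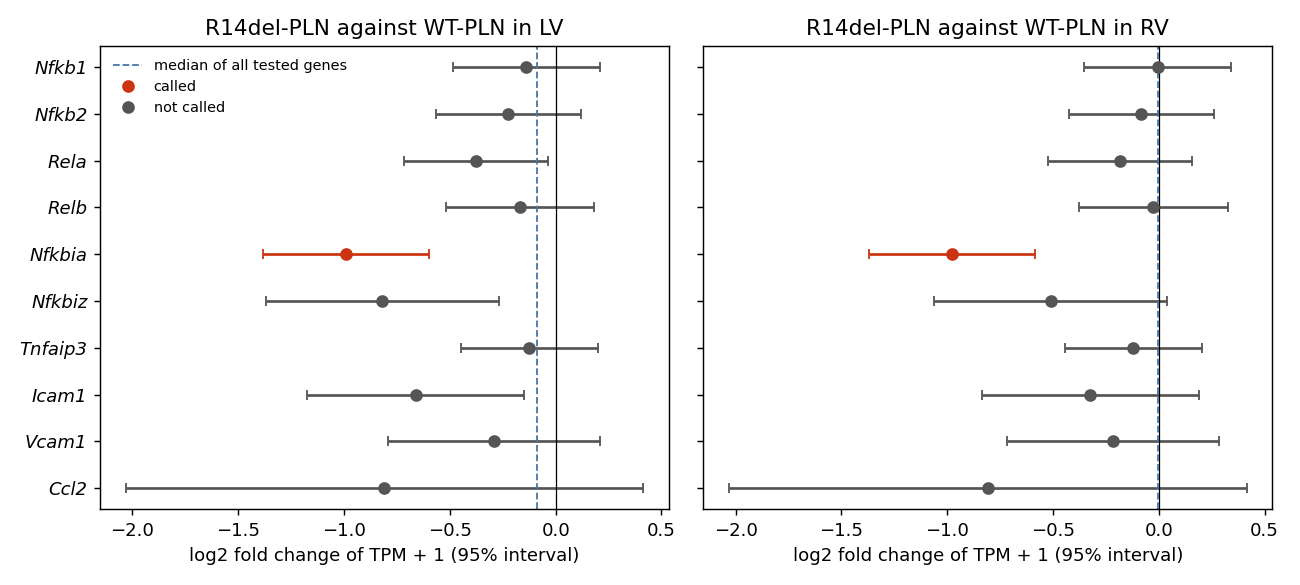
Log2 change of TPM + 1 for R14del-PLN against WT-PLN in LV (left) and RV (right) for the 10 genes, with 95% intervals from limma. Red marks called genes, the solid line is 0 and the dashed line is the median over all tested genes (-0.09 in LV, -0.0034 in RV). Nfkbia is called in both ventricles, and the RV value of Nfkb1 changes sign under other scalings, as does that of Relb when mitochondrially encoded genes are removed.

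WT-PLN sample 1 stood apart in both ventricles. All 10 genes were lowest in sample 1 in WT-PLN LV and again in WT-PLN RV, while in R14del-PLN sample 1 was lowest for 5 genes in the LV and 4 in the RV. How many of all tested genes were lowest in WT-PLN sample 1 was not counted. Sample 3 was the highest for 9 of the 10 genes in WT-PLN LV and also in R14del-PLN LV. The mitochondrial share of R14del-PLN LV sample 3 was 37.3%, against 51.2% and 50.4% in samples 1 and 2 of that group. Of Eif2s3y, Uty, Ddx3y and Kdm5d, which lie on the Y chromosome, both WT-PLN samples of number 1 had only 0.0159 to 0.191 TPM. Every other sample had 3.03 to 30.6 TPM, and the study describes male mice. By these genes the former do not look male, and no R14del-PLN sample was so low. The genotypes are therefore not balanced in this respect, and its part in the results was not tested. With both WT-PLN samples of number 1 left out, 3 of the 10 genes were called in the LV: Nfkbia (log2 change -1.16, adjusted p = 0.00961), Nfkbiz (-1.10, adjusted p = 0.00648) and Icam1 (-0.96, adjusted p = 0.0210). Ccl2 then had a log2 change of -1.46 with an adjusted p of 0.0944. In the RV Nfkbia remained the 1 gene called (-1.03, adjusted p = 0.0294), and Nfkbiz had a log2 change of -0.77 with an adjusted p of 0.0836. Of 12526 tested genes 231 were then called in the LV and 88 in the RV, against 65 and 34 with all samples. Since sample 1 was the lowest of its WT-PLN group for all 10 genes, leaving it out raised their WT-PLN means by construction. The added calls are therefore no separate support for a lower level in the mutants. Leaving out WT-PLN LV sample 1 alone gave the same 3 called genes in the LV. Leaving out other WT-PLN libraries moved the log2 changes toward 0: without WT-PLN LV sample 3 Ccl2 was at -0.24 and Rela at -0.25 in the LV, and without WT-PLN RV sample 3 Ccl2 was at -0.13 and Nfkbiz at -0.25 in the RV. Icam1 was at -0.15 in the RV without WT-PLN RV sample 2.

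**Figure D5:**
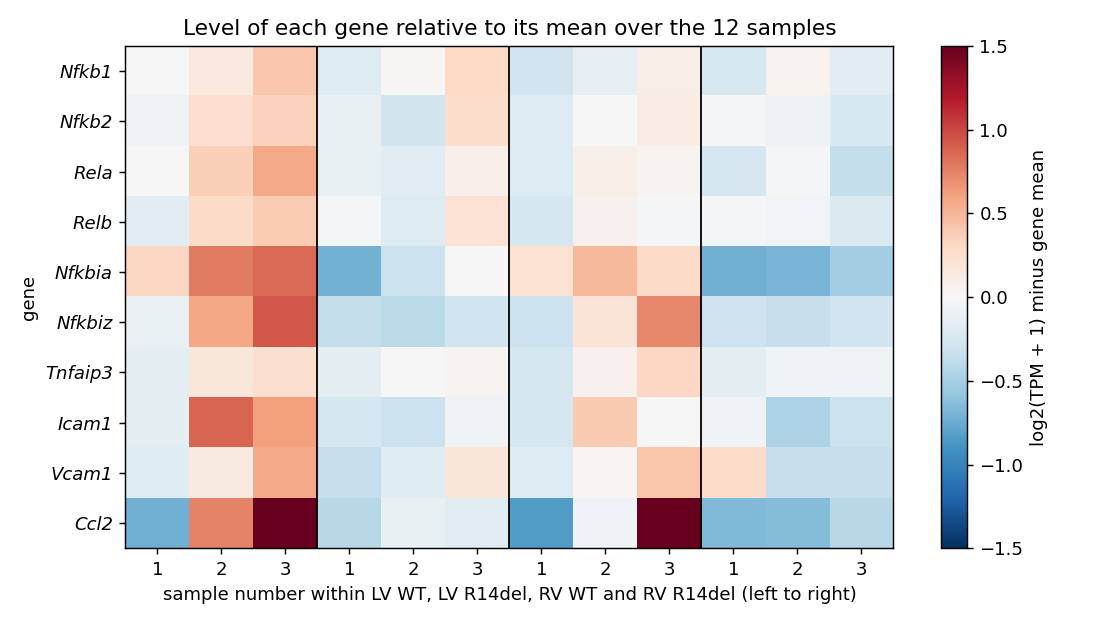
Level of each gene (rows) in each sample (columns, grouped as LV WT, LV R14del, RV WT and RV R14del) as log2(TPM + 1) minus the mean of that gene over the 12 samples, from blue (below) to red (above). Nfkbia is below its mean in all 6 R14del-PLN samples, and in both WT-PLN groups sample 1 is the lowest for all 10 genes.

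Markers of other cell types moved with some of these values. The summed level of 5 neutrophil markers was 0.668, 3.34 and 14.9 TPM in WT-PLN LV samples 1 to 3 and 0.459, 1.98 and 4.54 TPM in WT-PLN RV, against 0.628 to 1.29 TPM in R14del-PLN LV and 0.650 to 1.05 TPM in R14del-PLN RV. The order of the WT-PLN samples was not particular to neutrophil markers. In both WT-PLN groups 7 of the 9 marker lists, the cardiomyocyte list included, had their lowest sum in sample 1 and their highest in sample 3. Nfkb1, Nfkb2, Nfkbiz, Tnfaip3, Vcam1 and Ccl2 had the same order. Retnlg, a neutrophil marker averaging 0.144 TPM, was listed at 0 in every mutant library and in WT-PLN sample 1 of both ventricles. Other markers of that list were not absent. Cxcr2 was at 0.0654 to 0.0952 TPM in the mutant libraries. Csf3r was higher in R14del-PLN RV sample 1 (0.733 TPM) than in any WT-PLN RV sample (up to 0.570 TPM). Haemoglobin and other red cell markers summed to 2087 to 2316 TPM in WT-PLN LV and 1093 to 2142 TPM in R14del-PLN LV, and to 1461 to 1736 and 956.4 to 1368 TPM in the RV. All 5 red cell markers had log2 changes below 0 in both ventricles, as Nfkbia did, and 4 in the LV and 3 in the RV had an unadjusted p of at most 0.05. Macrophage markers overlapped between the genotypes, at 47.3 to 71.1 and 49.4 to 60.9 TPM in the LV and 41.5 to 51.7 and 39.6 to 63.3 TPM in the RV. In each ventricle 4 of the 5 macrophage markers were below 0 in log2 change. Endothelial sums were 91.5 to 114 and 90.3 to 126 TPM in the LV and 69.4 to 85.1 and 80.1 to 108.5 TPM in the RV, with 4 of 5 markers above 0 in log2 change in each. Fibroblast sums overlapped too, at 266 to 470 and 223 to 344 TPM in the LV and 289 to 370 and 258 to 361 TPM in the RV. All 5 fibroblast markers were below 0 in log2 change in both ventricles, with a median of -0.33 in the LV and -0.14 in the RV. Smooth muscle and pericyte sums were 176 to 381 and 153 to 243 TPM in the LV, with 4 of 5 markers below 0 in log2 change, and 151 to 190 and 155 to 206 TPM in the RV, with 1 of 5 below 0. Atrial markers summed to 207 to 1296 and 145 to 319 TPM in the LV, where all 4 tested markers were below 0 in log2 change, and to 86.4 to 871 and 45.6 to 521 TPM in the RV, where 2 of 4 were. The 5 lymphocyte markers summed to at most 1.56 TPM, and cardiomyocyte markers summed to 17820 to 26620 TPM. The part of these cell types in the results was not tested.

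Between the ventricles none of the 10 genes was called by limma in either genotype, where 0 of 12526 genes (0%) were called, with 1811 genes (14.5%) in WT-PLN and 823 (6.57%) in R14del-PLN at an unadjusted p of at most 0.05 and none of the 10 among them. In WT-PLN all 10 genes had lower values in the RV (median log2 difference -0.28, beside -0.165 over all tested genes), where 85.9% of genes were below 0. Tnfaip3 and Vcam1 turned above 0 under quantile normalization and upper quartile scaling, and Vcam1 also without the mitochondrially encoded genes. Quantile normalization moved the median of all genes in this comparison to 0.0050 and the median of the 10 to -0.11. The WT-PLN differences were -0.33 ± 0.16 for Rela, -0.31 ± 0.18 for Nfkbia and -0.40 ± 0.24 for Icam1, with adjusted p-values of 0.349, 0.419 and 0.421. RV was below LV in each of the 3 pairs of one number for 9 of the 10 genes, all but Tnfaip3, where 58.1% of tested genes were. In R14del-PLN 9 of the 10 were below 0, where 70.3% of genes were, with a median of -0.08 beside -0.08 over all genes, and Nfkbiz was at 0.04. Removing the mitochondrially encoded genes turned the values of Icam1, Nfkb2, Relb, Tnfaip3 and Vcam1 above 0, and quantile normalization and upper quartile scaling did so for Icam1, Nfkb2 and Vcam1. Samples of the same number deviated together in WT-PLN, and with genotype and number as a replicate block, added after the data were seen, 12 genes were called in WT-PLN and none of the 10. In that fit the SE was 0.15 for Rela, Nfkbia and Icam1 alike, with limma adjusted p-values of 0.312, 0.349 and 0.260.

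Ordered by group mean, Nfkbia was highest in WT-PLN LV, then WT-PLN RV, R14del-PLN LV and R14del-PLN RV. Neighbouring groups overlapped except WT-PLN RV and R14del-PLN LV, where the lowest WT-PLN sample was at 20.9 TPM and the highest mutant sample at 17.6 TPM. For the other 9 genes WT-PLN LV was also highest, and every pair of neighbouring groups overlapped.

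No interaction of genotype and ventricle was called for any of the 10 genes by limma, nor for any of 12526 genes (0%), with 127 genes (1.01%) at an unadjusted p of at most 0.05 and none of the 10 among them. The interaction was 0.34 ± 0.34 for Icam1 and 0.31 ± 0.36 for Nfkbiz in log2, both with wide intervals.

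In the rest of the pathway, 66 genes were listed, of which 50 passed the filter on low values, and none was called by limma in any of the 5 comparisons. In the LV 38 of the 50 had log2 changes below 0 and 12 above, with a median of -0.18, where 71.7% of all tested genes were below 0 with a median of -0.09. In the RV 27 were below and 23 above, with a median of -0.01, where 50.9% of all tested genes were below 0 with a median of -0.0034. At an unadjusted p of at most 0.05, 8 were lower in the LV (Gadd45b, Ier3, Junb, Ptgs2, Ripk1, Tlr4, Tnfrsf1b and Zc3h12a; 7.85% of all tested genes) and 1 in the RV (Junb; 3.40%), with no gene higher in either. Among the 8 receptors, Tnfrsf1b, a TNF receptor, had a log2 change of -0.47 ± 0.15 in the LV (adjusted p = 0.284) and -0.20 in the RV, and Tlr4, the endotoxin receptor, -0.50 ± 0.20 and 0.03. Of 11 kinases, Ripk1, a kinase of TNF receptor signalling, had a change of -0.47 ± 0.16 in the LV (adjusted p = 0.320), and Map3k7, an activator of IKK, was at -0.0076 in the LV and 0.25 in the RV.

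Among the adaptors and ubiquitin ligases Birc3 was at -0.31 in the LV and 0.15 in the RV, and Traf6 at -0.21 and 0.03. Of the ligands only Tnfsf13b passed the filter, at -0.26 and -0.12, while Tnf, Il1a, Il1b, Il6, Lta and Ltb averaged under 0.5 TPM over the 12 samples. Rel, the c-Rel subunit abundant in lymphoid cells, was at 0.24 in the LV and 0.18 in the RV, and Bcl3, an atypical IkappaB protein, at -0.43 and 0.09. The feedback genes Zc3h12a, an RNA-degrading enzyme, and Tnip1, a partner of Tnfaip3, were at -0.45 and 0.06 in the LV and -0.09 and 0.38 in the RV. Csf1, the macrophage growth factor, was at 0.33 and 0.41, and Cxcl1, a neutrophil chemokine, at -1.22 ± 0.60 and -1.01 ± 0.60. The early response target Ier3 was at -0.60 in the LV and -0.54 in the RV, and Gadd45b, a stress-induced growth arrest gene, at -0.64 and -0.19. The 16 genes under the filter, with means between 0.00523 and 0.437 TPM, gave no call in a limma fit without it. At an unadjusted p of at most 0.05 there was 1 of them in the LV (Il1a) and 0 in the RV. Il1a was higher in R14del-PLN LV, with a mean of 0.181 TPM against 0.129 TPM in WT-PLN LV. Without WT-PLN LV sample 1 the pathway gene Tnfrsf1b was called in the LV, where 153 of 12526 tested genes were then called. Without both WT-PLN samples of number 1, 4 pathway genes were called in the LV (Ccl7, Cxcl1, Junb and Tnfrsf1b), where 231 of 12526 were. With all samples 65 were called, so calls rose over all tested genes and not only in the pathway.

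Genes whose log2(TPM + 1) ran most like that of a member over the 12 samples were named for the 4 members with the smallest p between genotypes, by Pearson's r, as a description with no test. For Nfkbia these were Ddit4, an inhibitor of mTOR signalling (r = 0.986, 0.926 with group means removed), Cdkn1a, a cyclin-dependent kinase inhibitor (0.978, and 0.848 with group means removed), and Lrrc8a, a volume-regulated anion channel subunit (0.968, and 0.790). Ddit4 was called in both ventricles, with log2 changes of -1.56 ± 0.26 in the LV and -1.42 ± 0.26 in the RV. Cdkn1a was called in the LV, at -1.57 ± 0.27 (limma adjusted p = 0.0198), and not in the RV, at -1.42 ± 0.27 (adjusted p = 0.0507), and Lrrc8a in neither. For Nfkbiz they were Fos (0.986), Thbs1 (0.980) and Btg2 (0.979), none of them called here. The study reports Thbs1 as downregulated in both ventricles by its own test, with the same trend in quantitative PCR. Here Thbs1 had log2 changes of -2.63 in the LV (limma adjusted p = 0.444) and -2.22 in the RV (adjusted p = 0.83). The cause of this difference in calls was not tested. The genes most like Icam1 were Jdp2 (0.945), 4930486L24Rik (0.940) and Tubb2b (0.938), and those most like Rela were Elmo1 (0.986), Cdc42se1 (0.980) and Rasgrp2 (0.979). The 12 points share groups and scaling, and the genes were ranked among all tested genes. Genes picked for running like a member over these samples tend to share its difference between genotypes. Their calls are therefore no separate support for it.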

How the data were processed

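The members and gene lists were chosen with earlier results of these data known. PolyA stranded libraries (TruSeq kit per the labels) of 12 samples were mapped by the authors to GRCm38 in CLC Genomics Workbench 20.0.2 and deposited as TPM per gene; the strand setting of the counting is not given in the sources used here. Each sample sums to 1000000 TPM, so depth is unknown and no counting interval is given. The mitochondrial share was 37.3 to 54.5% and the phospholamban gene was at 1559 to 1963 TPM, a value that cannot show the deletion. No pair of samples held identical values (r 0.958 to 0.991 of log2 values). The labels do not say that samples came from separate hearts, so p-values measure the spread between samples.

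Log2(TPM + 1) was fitted with limma 3.58.1 (R 4.3.3, empirical Bayes with trend, 4 group means, 8 residual degrees of freedom) on the 12526 genes averaging 0.5 TPM or more over all samples, with Benjamini-Hochberg adjustment over all of them. The fit was tested on simulated data. Alternatives covered the pseudocount, the filter, scaling, blocks and each library left out. The fold change understates that of genes at low TPM. Named pathway genes are those called, or otherwise the 2 of each group with the smallest p between genotypes; the likeness genes are the 3 with the highest r. Samples of one number in WT-PLN LV and RV deviated together (r 0.321 to 0.658), so the number pairs them there; this comes from the data and not from the labels. Promoters came from RefSeq (GRCm38.p6), positions from GENCODE M21, and copies were searched with BLAST 2.17.0.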

Additional observations from a re-analysis of the deposited data

How the results depend on the processing

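Depth is unknown, with 3 samples a group, and changes the size of the intervals given could not be told from none. In the LV, 1 of the 10 genes was called, and 0 with no filter on low values and with only the compared groups in the fit; leaving out each library gave 0 to 3, and leaving out both WT-PLN samples of number 1 gave 3. In the RV, 1 was called, and 0 with no filter; leaving out each library gave 0 to 1. Without a filter 22948 genes entered both the fit and the adjustment. At the same log2 change, the unadjusted limma p of Nfkbia rose from 0.000107 to 0.000352 in the LV. In the RV it rose from 0.0001225 to 0.000391. The cause of the lost calls was not tested. Over the alternatives, all genes called numbered 19 to 231 in the LV and 14 to 88 in the RV. Without a filter they were 22 in the LV and 17 in the RV. Quantile normalization gave 103 in the LV (38 higher, 65 lower, against 12 and 53) and 86 in the RV, and upper quartile scaling gave 101 and 84. Without the mitochondrially encoded genes, 95 and 72 were called, of the latter 30 higher and 42 lower, against 9 and 25. These scalings moved the median of all genes in the LV from -0.09 to 0.01 and 0.02. Nfkbia kept its direction in both genotype comparisons under all 24 alternatives, was called in 18 of them in the LV and 14 in the RV, and had adjusted p-values of 0.00762 to 0.151 in the LV and 0.00723 to 0.252 in the RV.

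With the sample number as a replicate block, the Nfkbia adjusted p was 0.00762 in the LV and 0.0107 in the RV, and 119 and 62 genes were called. With genotype and number as a random replicate block it was 0.0259 and 0.0397. Between genotypes the samples share only a number (r -0.0209 to 0.156 in the LV, 0.0610 to 0.219 in the RV). In R14del-PLN, LV and RV libraries with equal numbers had r 0.0542 to 0.389, not all above 0.1, and the block called none of the 10 genes there.

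Signs of values that passed no test changed as follows, and the cause was not tested. In the RV between genotypes, Nfkb1 became 0.000475 with quantile normalization, 0.013 with upper quartile scaling and 0.036 without mitochondrially encoded genes, and Relb 0.0040 in the last. Leaving out libraries gave -0.094 to 0.090 for Nfkb1, -0.12 to 0.040 for Relb and -0.27 to 0.017 for Tnfaip3.

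For RV against LV in WT-PLN, Tnfaip3 became 0.035 and 0.024 with quantile normalization and upper quartile scaling, and Vcam1 0.093 and 0.092, and 0.031 without mitochondrially encoded genes. Leaving out libraries gave -1.02 to 0.22 for Ccl2, -0.19 to 0.095 for Tnfaip3 and -0.27 to 0.10 for Vcam1.

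For RV against LV in R14del-PLN, quantile normalization, upper quartile scaling and removal of mitochondrially encoded genes gave 0.0062, 0.014 and 0.070 for Icam1, 0.0089, 0.012 and 0.073 for Nfkb2, and 0.062, 0.066 and 0.13 for Vcam1, and the removal gave 0.024 for Relb and 0.0096 for Tnfaip3. Leaving out libraries gave -0.17 to 0.032 for Icam1, -0.19 to 0.081 for Nfkb2, -0.19 to 0.016 for Relb and -0.23 to 0.13 for Vcam1.

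For the interaction, Ccl2 became -0.039 and -0.10 with pseudocounts of 0.5 and 0.1, -0.11 with quantile normalization, -0.095 with upper quartile scaling and -0.026 without mitochondrially encoded genes. Nfkbia became -0.092 and -0.096, Tnfaip3 -0.065 and -0.040, and Vcam1 -0.030 and -0.026 with quantile normalization and upper quartile scaling, and Tnfaip3 -0.034 without both WT-PLN samples of number 1. Leaving out libraries gave -0.57 to 0.68 for Ccl2, -0.17 to 0.18 for Nfkbia, -0.15 to 0.14 for Tnfaip3 and -0.14 to 0.25 for Vcam1.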
